A study of Mus musculus with 4 samples.

Results

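Genes of red blood cell formation were read in 4 poly-A RNA libraries from mouse tumours, in which their levels set tumour 9 apart from tumours 1, 5 and 10. The 9 genes described are the globins Hbb-bs, Hbb-bt and Hba-a1, the haem enzyme gene Alas2, the transcription factor genes Gata1, Klf1 and Gfi1b, and the red cell surface genes Kel and Rhag. They were taken by symbol from the 24063 genes of the count tables, and where a symbol had several transcript rows, the row with most counts on average was used. They were chosen on their CPM in tumour 9 against the others, from earlier results of these libraries. Their difference between tumour 9 and the others is therefore given as a description, with no test.

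The tumours carry the labels MYC;PMEPA1 overexpression and C57BL/6 (C57BL6/J in the titles), hydrodynamic tail vein delivery (a rapid injection that takes DNA mainly to hepatocytes) and no treatment. The series title concerns PMEPA1, a brake on TGF-beta signalling, in hepatocellular carcinoma. All 4 libraries form 1 group, with the replicate numbers 1, 5, 9 and 10, and no control group was analysed here, so the measurement is the spread between tumours. Neither an age nor whether each tumour was from its own animal is given in the labels, which list 8-10 passages, a term of cell or graft culture, beside a tumour source. Gene totals were 41547956 to 51939610 counts per library, at which 3 counts, the most that a count of 0 allows, correspond to 0.0524 to 0.0892 CPM, the counts scaled to a library of 1000000. These limits, and the 95% intervals given later, cover counting error only. Over all genes, tumour 9 correlated with the other tumours at Pearson's r of 0.832 to 0.891, while tumours 1 and 5 correlated at 0.955 and each with tumour 10 at 0.844 to 0.847, where genes are not independent replicates. The hepatocyte markers were abundant in every library, with Alb, the gene of serum albumin, at 5594 CPM in tumour 9 and 4520 to 13400 CPM in the others.

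Red blood cells arise from progenitors that switch on GATA1, the central transcription factor of the lineage, together with partners such as KLF1 and GFI1B. Erythroblasts then make haem, starting with the enzyme ALAS2, and fill with haemoglobin, which is built of alpha and beta globin chains around haem. The liver is the main blood-forming organ of the fetus, and in adult mice the bone marrow and the spleen take over this role. Poly-A RNA of globins persists in reticulocytes, the young red cells of the circulation, after the nucleus has been lost.

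The promoters of 6 of these genes are shown because they carry the short motifs that GATA1 and KLF1 are known to bind, and because the genes stood high in the same tumour. Each runs from 250 bases before to 50 bases after the transcript start in RefSeq's GRCm38.p6 table, 5′ to 3′ on the strand of the gene. Capitals mark GATAA or its reverse complement TTATC, and CACCC or its reverse complement GGGTG. The positions are chr7:103827879-103828178 on the minus strand for Hbb-bs, chr11:32283422-32283721 on the plus strand for Hba-a1 and chrX:150547167-150547466 on the plus strand for Alas2. Those of Gata1 (chrX:7967861-7968160), Kel (chr6:41704276-41704575) and Rhag (chr17:40810899-40811198) lie on the minus, minus and plus strand.
Hbb-bs: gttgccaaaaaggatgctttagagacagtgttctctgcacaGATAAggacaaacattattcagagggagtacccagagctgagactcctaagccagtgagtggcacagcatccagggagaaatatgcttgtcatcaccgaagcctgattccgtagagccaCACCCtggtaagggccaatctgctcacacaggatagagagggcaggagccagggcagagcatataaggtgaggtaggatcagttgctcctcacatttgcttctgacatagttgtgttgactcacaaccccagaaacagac
Hba-a1: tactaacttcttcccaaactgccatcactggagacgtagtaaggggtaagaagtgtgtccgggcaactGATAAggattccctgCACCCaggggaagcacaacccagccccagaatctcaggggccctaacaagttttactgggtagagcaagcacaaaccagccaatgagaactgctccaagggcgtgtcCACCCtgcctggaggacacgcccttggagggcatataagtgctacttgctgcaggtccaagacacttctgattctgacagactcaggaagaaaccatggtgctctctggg
Alas2: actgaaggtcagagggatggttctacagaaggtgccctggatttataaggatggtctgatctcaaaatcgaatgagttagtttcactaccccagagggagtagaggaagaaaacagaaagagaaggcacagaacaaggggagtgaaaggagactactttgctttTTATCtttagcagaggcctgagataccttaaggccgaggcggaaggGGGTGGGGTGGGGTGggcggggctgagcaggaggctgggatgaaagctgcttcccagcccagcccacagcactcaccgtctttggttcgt
Gata1: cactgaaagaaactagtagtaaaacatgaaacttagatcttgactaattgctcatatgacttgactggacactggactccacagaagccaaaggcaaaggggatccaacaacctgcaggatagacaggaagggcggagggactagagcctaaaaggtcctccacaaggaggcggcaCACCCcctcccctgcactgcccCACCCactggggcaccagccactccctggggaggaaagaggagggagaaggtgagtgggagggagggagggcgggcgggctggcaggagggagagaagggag
Kel: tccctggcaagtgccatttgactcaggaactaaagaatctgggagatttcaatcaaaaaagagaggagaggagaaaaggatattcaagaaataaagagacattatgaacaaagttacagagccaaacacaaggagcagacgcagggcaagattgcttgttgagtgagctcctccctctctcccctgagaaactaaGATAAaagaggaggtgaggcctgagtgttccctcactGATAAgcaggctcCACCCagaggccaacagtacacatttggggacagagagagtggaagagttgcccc
Rhag: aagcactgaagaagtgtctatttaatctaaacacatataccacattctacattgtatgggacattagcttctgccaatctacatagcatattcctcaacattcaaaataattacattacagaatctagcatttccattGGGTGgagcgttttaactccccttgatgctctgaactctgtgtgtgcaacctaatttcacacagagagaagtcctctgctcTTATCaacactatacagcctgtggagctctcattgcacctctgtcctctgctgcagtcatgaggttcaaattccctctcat

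The 9 genes all had a promoter in the table. GATAA was found in 8 of the 9 promoters, on either strand, against 25.4% of the 32851 mouse promoters of the same length. The exception was Gata1, whose window holds no GATAA but 2 CACCC motifs. The CACCC motif was found in 9 of 9, against 57.5% of all promoters, CCAAT in 6 of 9, against 37.4%, and TATAAA in 2 of 9, against 13.6%. In the Rhag window a CCAAT match and a CACCC match share 2 letters, and the other matches do not overlap. A match is a description of the sequence, not a bound site. The promoters of Hba-a1 and its copy Hba-a2 were identical over 297 aligned bases, and those of Hbb-bs and Hbb-bt were 73.6% identical.

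The 3 globins were the most abundant of the genes per kilobase of transcript in every tumour, and they were highest in tumour 9. Hbb-bs, an adult beta globin of the C57BL strains, had 366 CPM in tumour 9, against 46.5, 82.0 and 54.7 CPM in tumours 1, 5 and 10. Hbb-bt, the second adult beta globin, had 78.0 CPM in tumour 9, against 7.34, 11.3 and 9.43 CPM in tumours 1, 5 and 10. Hba-a1, an adult alpha globin, had 257 CPM in tumour 9, against 23.6, 23.6 and 25.5 CPM in tumours 1, 5 and 10. Tumour 9 lay well above the others for each globin, and for Hba-a1 the other tumours were almost level, with a standard deviation (SD) of 0.06 log2 units among them. On the log2 CPM scale, with a prior count of 2, tumour 9 exceeded the mean of the others by 2.63 for Hbb-bs, 3.08 for Hbb-bt and 3.41 for Hba-a1. The 3 globins together took 0.0769% of all gene counts in tumour 9, against 0.00853%, 0.0120% and 0.00718% in tumours 1, 5 and 10. In bulk tissue, fewer cells of a type and less RNA per cell cannot be told apart.

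**Figure D1:**
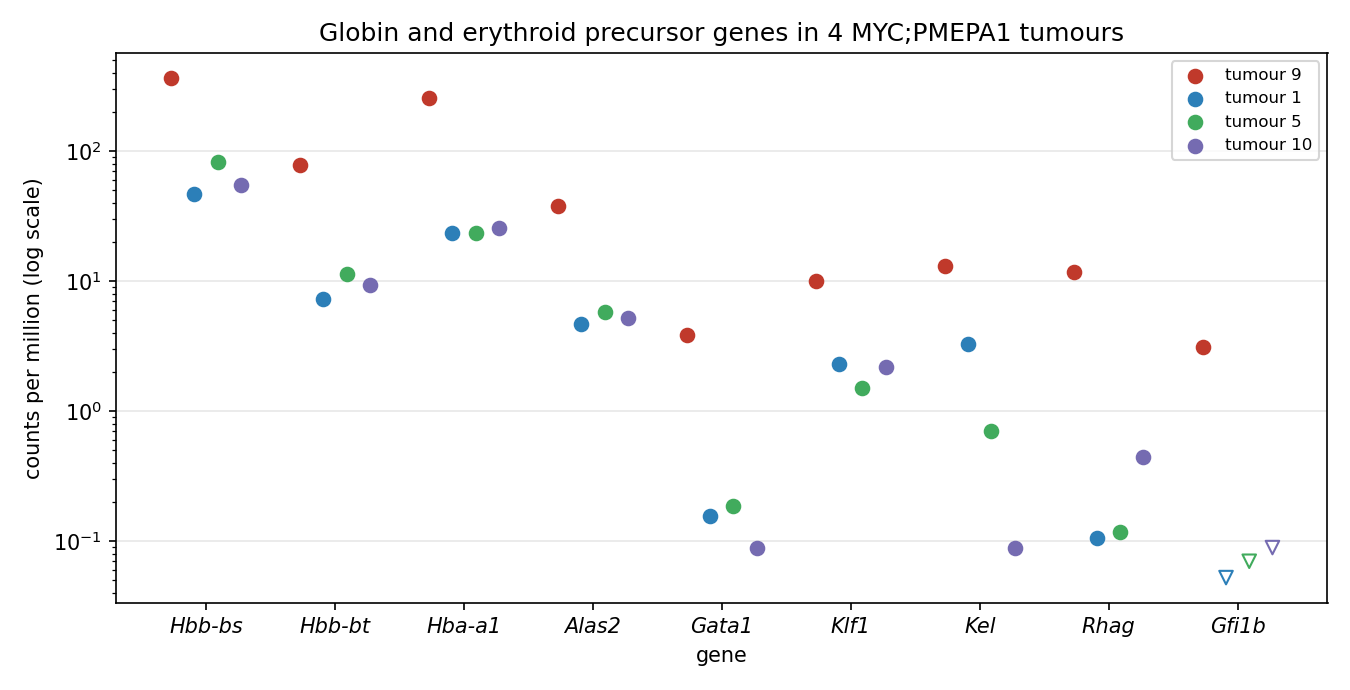
Levels of the 9 genes in each tumour, in CPM on a log axis, with 1 point per library and tumour 9 drawn left of tumours 1, 5 and 10. Open downward triangles stand at the floor of 3 counts for libraries below it. Tumour 9 is the highest library for each gene, and Kel has the widest spread among tumours 1, 5 and 10, with 3.27, 0.700 and 0.0892 CPM.

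Several globin rows hold the same reads. The counts of Hbb-bs were equal to those of Hbb-b1 in every library, those of Hbb-bt to those of Hbb-b2, and both rows of Hba-a1 to both rows of Hba-a2, so which alpha copy the reads came from is uncertain. The transcripts of Hba-a1 and Hba-a2 are 99.8% identical over 538 aligned bases, and those of Hbb-bs and Hbb-bt are 93.0% identical over 618 bases with a shared run of 430 bases, so reads can also move between the beta genes. Hbb-bs and Hba-a1 are 58.8% identical, with no shared run over 14 bases.

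Both chain types of haemoglobin were read in each tumour, in unequal proportion. Per kilobase, Hba-a1 divided by the sum of Hbb-bs and Hbb-bt gave 0.659 in tumour 9, against 0.501, 0.288 and 0.453 in tumours 1, 5 and 10, with a mean of 0.475 ± 0.153 (SD, n = 4). Tumour 9 had the highest ratio and tumour 5 the lowest, beyond counting error. The genes were chosen on tumour 9, so the higher ratio there restates a larger difference for Hba-a1 than for the beta genes. As counts, the ratio was 0.578 (95% exact interval 0.566 to 0.590) in tumour 9 and 0.439 (0.411 to 0.468), 0.253 (0.235 to 0.271) and 0.397 (0.367 to 0.430) in tumours 1, 5 and 10. With both rows of Hba-a1 summed, the mean ratio per kilobase became 0.567, with tumour 9 still highest (0.763) and tumour 5 lowest (0.378). The second row held 0.310 of the counts of the first in tumour 5, against 0.155 to 0.210 in the other tumours. The mean became 0.947 when the rows of Hba-a1 and Hba-a2 were summed, which counts the shared reads again. The absolute level thus depends on how the copies were counted. Hbb-bt made up 17.6% of the adult beta globin counts in tumour 9 (17.1 to 18.1%), against 13.6% (12.4 to 14.9%), 12.1% (11.1 to 13.1%) and 14.7% (13.2 to 16.3%) in tumours 1, 5 and 10. The interval of tumour 9 did not overlap those of the others. This share is a description too, since it restates a larger difference in tumour 9 for Hbb-bt than for Hbb-bs.

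Embryonic globins were at or near 0 counts. Hbb-y, Hbb-bh1 and Hbb-bh2, the beta-type globins of the embryo, had 0 counts in every tumour, which allows up to 0.0558 CPM in tumour 9 and 0.0524 to 0.0892 CPM in the others. Hba-x, the embryonic alpha-type globin, had 2 counts in tumour 9 and 0 in tumours 1, 5 and 10. The theta-type globin gene Hbq1b had 54 counts in tumour 9, against 8, 2 and 0 counts in tumours 1, 5 and 10. Hbq1b was thus highest in the same tumour as the adult chains, at a level near 1 CPM.

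Alas2, the erythroid form of the first enzyme of haem synthesis, had 37.7 CPM in tumour 9, against 4.68, 5.79 and 5.17 CPM in tumours 1, 5 and 10. Its log2 difference was 2.85, with an SD of 0.15 among the other tumours, whose values lay close together. The rest of the pathway did not share this pattern. Of 12 genes of haem synthesis and its transporters, each with a mean of at least 1 CPM, 2 were highest in tumour 9 (Ppox and Slc25a37), against 21.6% of all expressed genes, 9 were highest in tumour 10, against 35.8%, and their median log2 difference was -0.06, beside -0.05 over all 13129 genes at that level (called expressed from here on). Alas1, the housekeeping and hepatic form of the same enzyme, had 49.3 CPM in tumour 9, against 60.1, 69.1 and 635 CPM in tumours 1, 5 and 10. Alas1 was thus set apart by tumour 10, and Alas2 by tumour 9. Cpox, the coproporphyrinogen oxidase gene, had 175 CPM in tumour 9 and 167 to 218 CPM in the others. Tmem14c, a mitochondrial porphyrin carrier gene, had 103 CPM in tumour 9 and 67.3 to 190 CPM in the others. Slc25a37, the mitochondrial iron importer mitoferrin, had 72.6 CPM in tumour 9, against 54.4, 30.7 and 36.2 CPM in tumours 1, 5 and 10, a log2 difference of 0.89.

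Per kilobase, the transcription factor genes were much lower than the globins, and their reads lay mainly in tumour 9. Gata1 had 207 counts in tumour 9 (3.85 CPM), against 9, 8 and 3 counts (0.157, 0.187 and 0.0892 CPM) in tumours 1, 5 and 10. Gfi1b, a repressor that acts in erythroid and megakaryocyte precursors, had 167 counts in tumour 9, against 0, 1 and 2 counts in tumours 1, 5 and 10. Counts of this size leave the low group poorly measured: the Gfi1b level in tumour 9 was 138.52 times that of the others pooled. The exact 95% interval of 46.6 to 678 shows this width from counting error and leaves out the spread between tumours. It is no test, since Gfi1b was chosen on this contrast. Klf1, the activator of the adult beta globin gene, had 10.1 CPM in tumour 9, against 2.32, 1.49 and 2.17 CPM in tumours 1, 5 and 10. The difference was 2.33 log2 units for Klf1 and 4.42 for Gata1.

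Other genes of erythroid transcription were mixed. A gene high in tumour 9 can pass a filter on the mean of all tumours through that tumour alone, so the lists that follow are counted over genes with a mean of at least 1 CPM in tumours 1, 5 and 10. Of 12 erythroid transcription genes, 7 passed, 4 of these were highest in tumour 9 (Lmo2, Ldb1, E2f2 and Cbfa2t3) and 0 were at least 4-fold above the mean of the others, with a median log2 difference of 0.52. Over all 12906 genes that passed, 19.9% were highest in tumour 9 and 1.9% were at least 4-fold above, with a median of -0.06. Tal1, a partner of GATA1 under this filter, had 8.86 CPM in tumour 9, against 0.961, 0.887 and 0.446 CPM in tumours 1, 5 and 10. Myb, a factor of immature progenitors, was under the filter too and had 190 counts in tumour 9, against 7, 4 and 3 counts in tumours 1, 5 and 10. Of the genes that passed, Zfpm1, Zbtb7a and Sox6 were lowest in tumour 9. Zfpm1, the GATA1 cofactor FOG1, had 34.6 CPM in tumour 9 and 46.8 to 67.1 CPM in the others. Sox6 had 13.0 CPM in tumour 9, against 20.9, 29.4 and 13.1 CPM in tumours 1, 5 and 10. Zbtb7a, a repressor of fetal-type globins in humans, had 36.9 CPM in tumour 9 and 48.8 to 61.4 CPM in the others. Ldb1, a scaffold of the GATA1 complex, had 161 CPM in tumour 9 and 85.8 to 140 CPM in the others.

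The surface genes differed from each other outside tumour 9. Rhag, the Rh-associated glycoprotein that carries the Rh complex in the red cell membrane, had 627 counts in tumour 9 (11.7 CPM), against 6, 5 and 15 counts (0.105, 0.117 and 0.446 CPM) in tumours 1, 5 and 10. The difference was 5.70 log2 units for Rhag and 5.58 for Gfi1b, and their order turned with a prior count of 0.5, which gave 5.95 for Rhag and 6.73 for Gfi1b. Kel, which encodes the Kell blood group metalloprotease, had 13.0 CPM in tumour 9, against 3.27, 0.700 and 0.0892 CPM in tumours 1, 5 and 10. The Kel values of tumours 1, 5 and 10 spanned 187, 30 and 3 counts, and their SD of 2.33 log2 units was the widest of the 9 genes. The log2 difference of Kel was 4.25, and 3.06 without tumour 10, where it rested on 3 counts.

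Genes of the red cell membrane split into those far above the others in tumour 9 and those close to them. Of 16 such genes, 9 passed the filter on tumours 1, 5 and 10, 5 of these were highest in tumour 9 and 4 were at least 4-fold above the others (Slc4a1, Sptb, Dmtn and Aqp1), with a median log2 difference of 0.49. Dmtn was highest in tumour 5. Slc4a1, the anion exchanger band 3, had 87.0 CPM in tumour 9, against 1.14, 1.94 and 3.03 CPM in tumours 1, 5 and 10, a log2 difference of 5.50. Epb4.1, which encodes protein 4.1 and is used in many tissues, had 188 CPM in tumour 9 and 106 to 163 CPM in the others. Gypc, the glycophorin C gene, had 29.0 CPM in tumour 9, against 21.7, 21.1 and 59.0 CPM in tumours 1, 5 and 10.

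A list of erythroblast and reticulocyte genes had 17 of 18 symbols with a row (Ahsp was not analysed here). Of the 9 that passed the filter on tumours 1, 5 and 10, 5 were highest in tumour 9, 3 were at least 4-fold above the others (Epor, Car1 and Tspan33) and 2 were at least 2-fold lower (Tfrc and Pklr), with a median log2 difference of 0.98. Hemgn, the nuclear protein hemogen of blood precursors, had 664 counts in tumour 9 (12.4 CPM), against 3, 15 and 5 counts (0.0524, 0.350 and 0.149 CPM) in tumours 1, 5 and 10. The transferrin receptor gene Tfrc, which dividing cells also use, had 224 CPM in tumour 9, against 450, 720 and 904 CPM in tumours 1, 5 and 10. Tfr2, an iron sensor of hepatocytes and erythroblasts, had 164 CPM in tumour 9 and 82.6 to 330 CPM in the others. Pklr, the pyruvate kinase of liver and red cells, had 27.1 CPM in tumour 9, against 53.2, 137 and 243 CPM in tumours 1, 5 and 10. These abundant genes, which hepatocytes also express, were not highest in tumour 9. The list with them summed to 611 CPM in tumour 9, the lowest, against 669, 993 and 1588 CPM in tumours 1, 5 and 10.

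Set against the whole tables, 9 of the 9 genes were highest in tumour 9, where 2834 of 13129 expressed genes (21.6%) were, and 402 (3.06%) were at least 4-fold above the mean of the others. The choice of the genes used this contrast, so nothing is read from their count. The median log2 difference of the 9 genes was 3.41. Of the 9 genes, 6 passed the filter on tumours 1, 5 and 10, while Gata1 and Rhag averaged 1 CPM or more through tumour 9 alone and Gfi1b, at 0.798 CPM, did not. The other erythroid lists pooled, without the globin copies, had 63 genes with a row. With the filter on tumours 1, 5 and 10, 37 of these passed, 16 were highest in tumour 9 and 7 were at least 4-fold above, with a median log2 difference of 0.16. Over all 12906 genes that passed, 19.9% were highest in tumour 9 and 1.9% were at least 4-fold above, with a median of -0.06. The erythroid lists too were written with the tumour 9 result known.

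**Figure D2:**
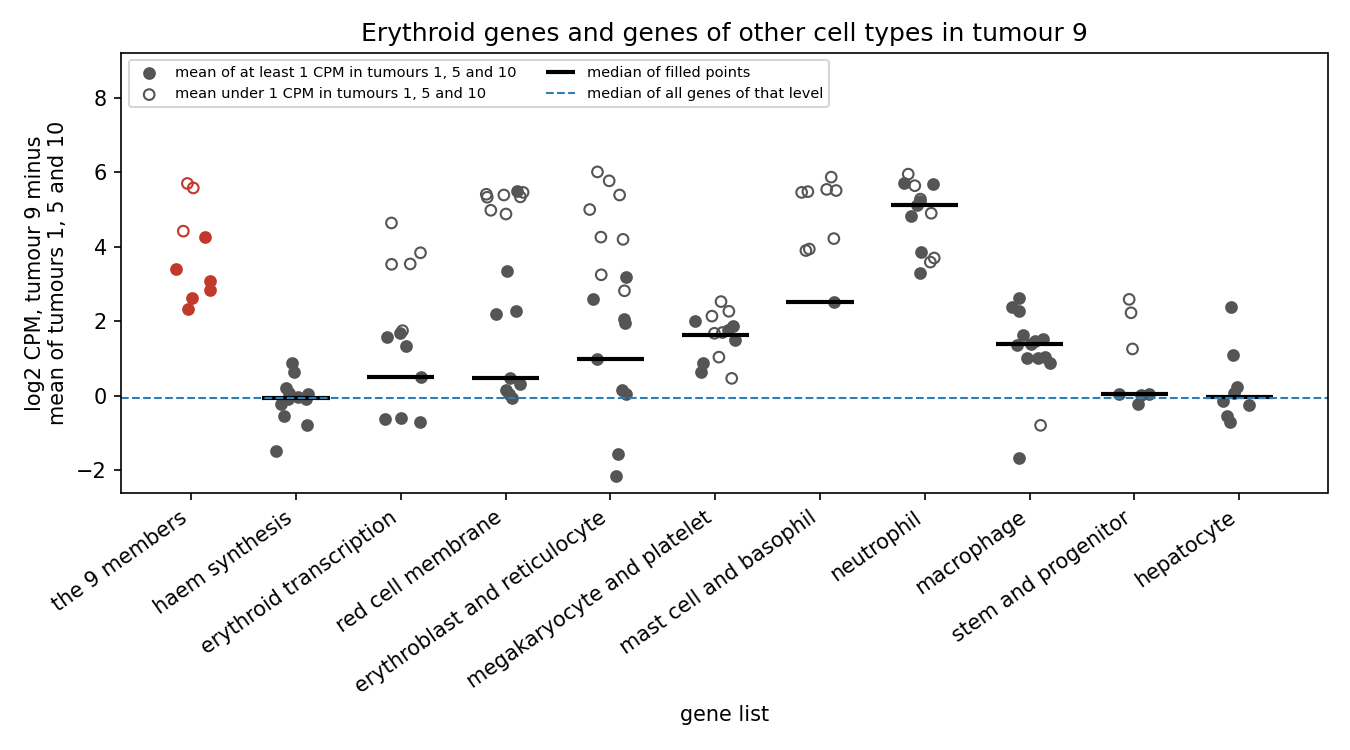
Log2 CPM in tumour 9 minus the mean of tumours 1, 5 and 10 for each gene of the 9 and of the other lists, with 1 point per gene and genes at 0 in every library left out. Filled points have a mean of at least 1 CPM in tumours 1, 5 and 10 and open points less, short black lines are medians of the filled points (not drawn for the 9 genes), and the dashed line is the median of all genes of that level (-0.06). The haem synthesis genes centre on that line at -0.06, and the red cell membrane genes split into points near it and points far above.

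A test of tumour 9 against the other tumours rests on 1 library on its side. By edgeR's quasi-likelihood test with Benjamini-Hochberg adjustment over all genes and tumours, no expressed gene was called. DESeq2's Wald test called 331 and limma-voom 0. A test of counting noise alone, a Poisson heterogeneity chi-square, called 12953 genes (98.7%), so nearly any expressed gene differed between these libraries by more than its counting error. Because the labels do not name separate animals, p-values measure only the spread between these samples, which may be technical.

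The other tumours were compared without tumour 9, which the choice of the genes had turned on. There, 6 of the 9 genes passed the filter and were tested in each of 3 tumours against the other 2. Of these 18 tests by edgeR's quasi-likelihood method, 0 were called, beside 413 of 38601 tests over all genes (1.07%), of which 2 (0.0155%), 1 (0.00777%) and 410 (3.19%) were in tumours 1, 5 and 10. DESeq2 called 0 of the 18 as well. The 1 test with an unadjusted p under 0.05 was Kel in tumour 10, with a log2 difference of -4.48 (edgeR adjusted p = 0.338; DESeq2 adjusted p = 0.0932). Apart from Kel, the fitted log2 differences of Hbb-bs, Hbb-bt, Hba-a1, Alas2 and Klf1 were at most 0.71 in size. With 3 libraries, a missed threshold does not show that the tumours had the same level.

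Counting the erythroid genes against Hbb-bs within a library removes the library's scale. These proportions are given as a description, since the choice of the genes used the same libraries, and a higher proportion in tumour 9 restates a larger difference there than that of Hbb-bs. Alas2 had 103 counts per 1000 Hbb-bs counts in tumour 9 (95% exact interval 98.3 to 108), against 101 (88.6 to 114), 70.6 (61.8 to 80.3) and 94.7 (80.6 to 111) in tumours 1, 5 and 10. The Alas2 intervals of tumours 9, 1 and 10 overlapped, and that of tumour 5 lay below the interval of each of them. Gata1 had 10.5 per 1000 in tumour 9 (9.13 to 12.1), against 3.38 (1.55 to 6.44), 2.28 (0.983 to 4.49) and 1.63 (0.336 to 4.78) in tumours 1, 5 and 10. Rhag had 31.9 per 1000 in tumour 9 (29.4 to 34.5), against 2.26 (0.827 to 4.92), 1.42 (0.462 to 3.33) and 8.16 (4.56 to 13.5) in tumours 1, 5 and 10. These intervals cover counting in single libraries and not the spread between tumours. Gfi1b had 8.49 per 1000 in tumour 9 (7.25 to 9.89), against 0 in tumour 1, which allows up to 1.13, and 0.285 (0.00721 to 1.59) and 1.09 (0.132 to 3.94) in tumours 5 and 10. Slc4a1 had 238 per 1000 in tumour 9 (230 to 245), against 24.4 (18.8 to 31.3), 23.6 (18.8 to 29.4) and 55.5 (45.0 to 67.8) in tumours 1, 5 and 10.

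Klf1 had 27.5 per 1000 Hbb-bs counts in tumour 9 (25.2 to 30.0), against 50.02 (41.7 to 59.6), 18.2 (14.0 to 23.3) and 39.7 (31.0 to 50.2) in tumours 1, 5 and 10. Kel had 35.6 per 1000 in tumour 9 (33.0 to 38.4), against 70.3 (60.3 to 81.6), 8.54 (5.75 to 12.2) and 1.63 (0.336 to 4.78) in tumours 1, 5 and 10. Tumour 1 was above tumour 9 for both genes. For Klf1 tumour 10 was above tumour 9 as well, and the intervals of tumours 1 and 10 overlapped.

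**Figure D3:**
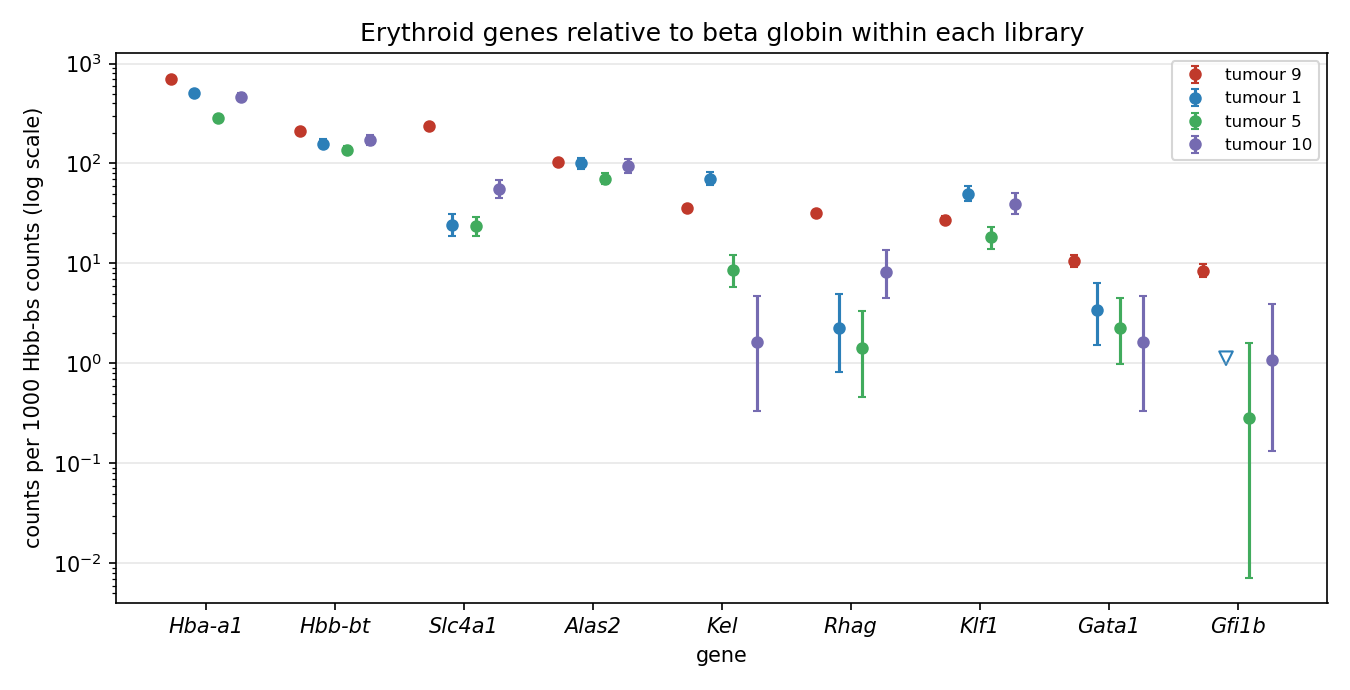
Counts of each gene per 1000 Hbb-bs counts of the same library, on a log axis, with tumour 9 left of tumours 1, 5 and 10 and bars for exact 95% intervals of counting error. An open triangle marks the upper limit where the count was 0 (Gfi1b in tumour 1). Gata1, Rhag and Gfi1b are highest in tumour 9, at 10.5, 31.9 and 8.49, while Klf1 and Kel stand higher in tumour 1 (50.02 and 70.3) than in tumour 9 (27.5 and 35.6). Klf1 is also higher in tumour 10 (39.7) than in tumour 9.

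Per kilobase, the order of the genes in tumour 9 was Hbb-bs (573 CPM per kilobase), Hba-a1 (459), Hbb-bt (124), Alas2 (19.1), Klf1 (6.56), Kel (5.19), Rhag (5.04), Gata1 (2.03) and Gfi1b (1.80). Among the expressed genes of tumour 9, Hbb-bs stood at percentile 98.9, Alas2 at 69.5 and Gata1 at 19.2 by this measure. Kel and Rhag, neighbours in that order, were close in tumour 9, but in tumour 1 Kel had 1.30 and Rhag 0.0453 CPM per kilobase. The globins were thus among the most abundant messages of the library, while Klf1, Gata1 and Gfi1b were in its lower range, at or under percentile 42.3.

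Most markers of mast cells, basophils and platelets were also highest in tumour 9. Many of these did not pass the filter on tumours 1, 5 and 10. Of 9 mast cell and basophil genes, 1 (Hdc) passed the filter on tumours 1, 5 and 10 and was highest in tumour 9, at least 4-fold above the others, and the list summed to 155 CPM in tumour 9, against 7.57, 10.5 and 48.4 CPM in tumours 1, 5 and 10. The mast cell tryptase gene Tpsb2 had 24.7 CPM in tumour 9, against 0.227, 0.467 and 0.505 CPM in tumours 1, 5 and 10. Hdc, the histidine decarboxylase gene, had 80.8 CPM in tumour 9, against 6.95, 8.55 and 46.3 CPM in tumours 1, 5 and 10. Its value in tumour 10 was thus also above those of tumours 1 and 5. The chymase gene Cma1 had 15.3 CPM in tumour 9 and 0.0874 to 0.862 CPM in the others. Mcpt8, a basophil protease gene, had 33 counts in tumour 9 and 0 in tumours 1, 5 and 10. GATA1 is also made in mast cells, eosinophils and megakaryocytes, so these values stand beside the Gata1 result, and their part in it was not tested.

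Of 14 megakaryocyte and platelet genes, 6 passed that filter, 5 of these were highest in tumour 9 (the exception was Pf4) and 0 were at least 4-fold above the others by the unrounded difference, and the list summed to 56.5 CPM in tumour 9, against 15.6, 13.7 and 25.0 CPM in tumours 1, 5 and 10. Clec1b, a platelet receptor gene that mouse liver macrophages also express, had 18.2 CPM in tumour 9 and 3.39 to 7.58 CPM in the others. Itgb3 and Vwf, shared with endothelium, had 10.1 and 10.9 CPM in tumour 9 and 2.62 to 4.67 and 2.27 to 3.04 CPM in the others. Ppbp, a platelet chemokine gene, had 2.96 CPM in tumour 9 and 0.280 to 0.862 CPM in the others, and Gp6, a platelet collagen receptor gene, was at 0 in every library. Eosinophil genes were scarce, with 1 of 5 past the filter (Ccr3) and a sum of 2.05 CPM in tumour 9 and 0.747 to 1.52 CPM in the others. Prg2 (0.651 CPM in tumour 9 and 0 to 0.0233 CPM in the others) and Epx (0.261 and 0 to 0.210 CPM) are granule protein genes, and Ccr3, a chemokine receptor gene, had 0.986 CPM in tumour 9 and 0.560 to 1.49 CPM in the others.

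Neutrophil and macrophage genes were also higher in tumour 9. Of 13 neutrophil genes, 7 passed the filter on tumours 1, 5 and 10 and 7 of these were highest in tumour 9 and at least 4-fold above the others, and the list summed to 626 CPM in tumour 9, against 18.4, 16.4 and 27.6 CPM in tumours 1, 5 and 10. Of these, S100a9 and S100a8 encode the subunits of calprotectin: S100a9 had 140 CPM in tumour 9 and 2.94 to 6.78 CPM in the others, and S100a8 112 CPM in tumour 9 and 1.99 to 5.44 CPM in the others. Ngp, a neutrophil granule protein gene, had 115 CPM in tumour 9 and 1.61 to 3.33 CPM in the others, and Ctsg, a granule protease gene of precursors, had 13.9 CPM in tumour 9 and 0.122 to 0.327 CPM in the others. Of 14 macrophage genes, 13 passed that filter, 11 of these highest in tumour 9 and 3 at least 4-fold above, with sums of 1367 CPM in tumour 9, against 356, 287 and 535 CPM in tumours 1, 5 and 10. Those 3 were Spic, the factor of iron-recycling macrophages, Cd5l, a protein secreted by macrophages, and Vcam1, a ligand on macrophages of erythroblastic islands and on endothelium. Spic had 22.0 CPM in tumour 9 and 2.43 to 4.43 CPM in the others, Cd5l 431 CPM in tumour 9 and 68.0 to 93.0 CPM in the others, and Vcam1 373 CPM in tumour 9 and 56.3 to 128 CPM in the others. C1qb, a complement gene of macrophages, had 140 CPM in tumour 9 and 37.6 to 79.2 CPM in the others. The genes of the list that were not highest in tumour 9 were the liver macrophage markers Clec4f, Marco and Timd4, each highest in tumour 1. Clec4f had 0.744 CPM in tumour 9, against 20.7, 2.99 and 0.208 CPM in tumours 1, 5 and 10. Marco had 2.68 CPM in tumour 9, against 8.67, 1.07 and 0.208 CPM in tumours 1, 5 and 10, and Timd4, under the filter, had 0.316 CPM in tumour 9, against 1.80, 0.420 and 0.238 CPM in tumours 1, 5 and 10. The part of these cells in the erythroid result was not tested.

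Of 7 stem and progenitor genes, 4 passed the filter on tumours 1, 5 and 10 and 0 of these were highest in tumour 9, against 19.9% of all genes. Mecom, Flt3 and Slamf1, under the filter, had log2 differences of 1.26, 2.59 and 2.23. The list summed to 102 CPM in tumour 9, against 119, 106 and 96.8 CPM in tumours 1, 5 and 10. Kit, the stem cell factor receptor gene that mast cells also express, had 8.79 CPM in tumour 9, against 23.6, 9.69 and 2.59 CPM in tumours 1, 5 and 10. The transcription factor genes Hlf and Meis1 and the receptor gene Flt3 had 60.0, 21.7 and 1.23 CPM in tumour 9, with 47.4 to 66.1, 19.0 to 37.4 and 0.0700 to 0.268 CPM in the others. Of 8 hepatocyte genes, all past the filter, 2 were highest in tumour 9, Apoa1 with 5779 CPM in tumour 9 and 2072 to 3086 CPM in the others, and Afp with 4974 CPM in tumour 9 and 120 to 3763 CPM in the others. Trf, the transferrin gene, had 5048 CPM in tumour 9 and 4112 to 5468 CPM in the others.

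**Figure D4:**
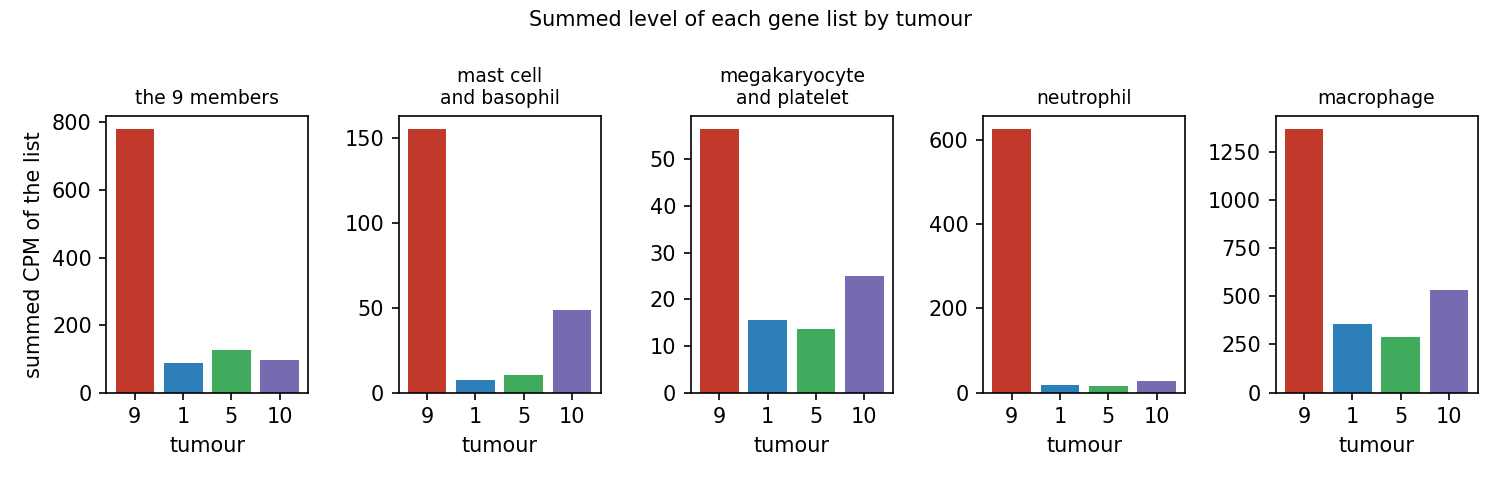
Summed CPM of the 9 genes and of the mast cell and basophil, megakaryocyte and platelet, neutrophil and macrophage lists, with 1 bar per library from 0 on a linear axis of its own in each panel, and tumour 9 left of tumours 1, 5 and 10. The bar of tumour 9 is the highest in each panel, at 780 CPM for the 9 genes, against 87.9, 125 and 97.6 CPM in tumours 1, 5 and 10. The sums of the lists not drawn were mixed. The erythroblast and reticulocyte sum was lowest in tumour 9. The haem synthesis and hepatocyte sums were highest in tumour 10, and the stem and progenitor sum in tumour 1. The red cell membrane, erythroid transcription, eosinophil and other globin sums were highest in tumour 9.

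The genes nearest to the 9 were found by the distance, over the 4 tumours, between a gene's log2 deviations from its own mean and the median deviations of the 9, which were 2.55 in tumour 9 and -0.97, -0.89 and -0.76 in tumours 1, 5 and 10. Of 13121 other expressed genes, 66 lay within a distance of 1. The nearest were the copy Hba-a2 (0.09) and Nfe2 (0.11), followed by Spn, the leukocyte sialoprotein CD43 (0.30), Crispld2 (0.32), Slfn1 (0.33), Rasd1 (0.35), Tmcc2 (0.45), the formin gene Fmnl1 (0.47), the copy Hbb-b2 (0.50) and the integrin gene Itgb2l (0.53). Nfe2 had 6.61 CPM in tumour 9, against 0.489, 0.514 and 0.595 CPM in tumours 1, 5 and 10. Spn had 7.82 CPM in tumour 9, against 0.524, 0.584 and 0.803 CPM in tumours 1, 5 and 10. Tmcc2 had 14.4 CPM in tumour 9, against 1.15, 0.887 and 1.46 CPM in tumours 1, 5 and 10. The likeness rests on 4 libraries and mainly on tumour 9. The genes ranked were filtered on the mean of all 4 tumours, which a gene high in tumour 9 can pass through that tumour alone. Nfe2, Spn, Crispld2, Slfn1, Rasd1 and Itgb2l were under 1 CPM in each of tumours 1, 5 and 10.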

How the data were processed

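Per the labels' protocols, RNA of 4 mouse tumours was purified with Trizol, DNase I and the RNeasy kit, and poly-A TruSeq libraries were made. The submitters' processing notes name FastQC 0.11.8 and, as build, GRCm38. Aligner, counting program and use of strand were not given in the sources used here. The tables deposited by the authors hold raw whole-number counts for 33984 transcript rows. Transcript lengths were taken from the deposited FPKM values (named so in the file headers), and the deposited TPM values served as an alternative with a pseudocount of 0.1.

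Each gene was represented by its row with the highest mean count. Counts were scaled by TMM in edgeR 4.0.16 (R 4.3.3), with factors of 1.098, 1.102, 1.031 and 0.8017 for tumours 9, 1, 5 and 10. With total-count scaling the median gene would shift by 0.13, 0.14, 0.04 and -0.32 (log2), so changes are relative to TMM. Genes with a mean of at least 1 CPM counted as expressed. Tests of 1 tumour against the rest used the robust quasi-likelihood test of edgeR (two-sided), with DESeq2 1.42.0 and limma 3.58.1 as alternatives, and a threshold of 0.05 after Benjamini-Hochberg adjustment. Intervals are exact (Clopper-Pearson). The tests were checked on simulated counts. Older symbols were matched through RefSeq synonyms. Transcript identity was computed from GENCODE M21 sequences.

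The members and the lists were chosen with earlier results of these data known. The genes named are the 9 members, in each list the 3 most abundant by mean CPM and the 1 of largest log2 difference, and the 10 nearest genes. The embryonic globins, genes that name a count or an exception, Tal1, Clec4f, Marco, Timd4, Mecom, Slamf1, Mcpt8 and Gp6 were added after their values were seen, as was the filter on tumours 1, 5 and 10.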

Additional observations from a re-analysis of the deposited data

Results flagged for a closer look

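Genes chosen on the difference of tumour 9 from the others (the 9 genes, their copies, the gene of largest difference in each list and the nearest genes) were not tested for an outlying tumour. Of the 30 other named genes, 3 had a tumour whose gap to its nearest neighbour, as a share of the range over the 4 tumours in log2 CPM, was above Dixon's 95% critical value for 4 samples. Chance flags about 1 in 20 groups, and the lists were written with earlier results known. Alas1 (0.868) was set apart by a high value in tumour 10. Ngp (0.832) and Cd5l (0.83), markers of neutrophils and macrophages, were set apart by high values in tumour 9. Ngp was named for its mean over all 4 tumours, which rests mainly on its 115 CPM in tumour 9, against 1.61 to 3.33 CPM in the others. Its flag is therefore a description, and the chance rate of 1 in 20 does not apply to it.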

How the results depend on the processing

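The 9 genes were highest in tumour 9 under each scaling, prior count, row choice and left-out tumour tried and in the deposited TPM. They were chosen as high in tumour 9, and leaving out another tumour cannot change that order. Neither the order nor the sign of the differences is therefore read as support. Of 72 alternative values of their differences, 63 moved by less than the spread among tumours 1, 5 and 10, 9 moved by more and 0 changed sign, over a range of 2.14 to 6.73 log2 units. The mean alpha to beta ratio was 0.567 with both Hba-a1 rows summed and 0.947 with Hba-a1 and Hba-a2 summed, against 0.475. Of the other erythroid genes that averaged 1 CPM or more in all 4 libraries together, 31 of 52 were highest in tumour 9. The share over all expressed genes was 21.6%, and a gene can pass this filter through tumour 9 alone. Under the same filter, leaving out 1 tumour gave 33 to 44, the 44 of 55 without replicate 10. With fewer tumours to exceed, more genes are highest in tumour 9 by construction, and the matching share over all genes is not given here. Nothing is read from this rise. With the filter taken from tumours 1, 5 and 10, an alternative chosen after seeing the data, it was 16 of 37, beside 19.9% of all genes that passed. For tumour 9 against the others, 6 genes were called with no filter, 331 by DESeq2's Wald test, and 0 to 28 with 1 tumour left out, the 28 without replicate 10. Without tumour 9, 413 calls became 186 with DESeq2 size factors, 2782 with no filter, 2625 by DESeq2's Wald test and 254 by limma-voom; the cause was not tested. Calls beyond counting noise ranged over 12284 to 12694 with 1 tumour left out. No paired analysis was possible because the libraries form 1 group. Counts of 15 or fewer limit Gata1, Rhag and Gfi1b in tumours 1, 5 and 10, and Kel in tumour 10, without which its difference was 3.06 in place of 4.25.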
